A study of Mus musculus with 7 samples.

Results

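The NRF2 antioxidant pathway was followed through 10 genes, found by their GENCODE M21 symbols among the 55487 genes of the count table. They are *Nfe2l2*, which encodes NRF2, its repressor gene *Keap1*, and 8 genes widely used as its readouts, *Nqo1*, *Hmox1*, *Gclc*, *Gclm*, *Txnrd1*, *Srxn1*, *Slc7a11* and *Gsr*. Expression was measured by poly(A) RNA-seq of the cervical spinal cord at 8 weeks of age in 4 *Neat1*-KO; hSOD1G93A mice (replicates 1 to 4) and 3 *Neat1*-WT; hSOD1G93A mice (replicates 2 to 4), called *Neat1*-KO and *Neat1*-WT from here on. Every mouse of both groups carried the hSOD1G93A transgene, a mutant human SOD1 that gives mice a motor neuron disease. Cords without the transgene were not analysed here, so the comparison is of *Neat1* loss within the disease model and not of disease with health. The *Neat1* deletion is in the germline and affects all cells, and the transgenic line was kept hemizygous on a mixed B6/SJL background. *Neat1* itself gives a long non-coding RNA, the scaffold of nuclear paraspeckles.

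NRF2 is a transcription factor that KEAP1, an adaptor of the CUL3 ubiquitin ligase, marks for degradation in unstressed cells. Oxidants and electrophiles modify cysteines of KEAP1, after which NRF2 builds up, pairs with small MAF proteins and binds antioxidant response elements near its target genes. Because NRF2 is controlled mainly as a protein, the mRNAs of its targets are commonly read as its output. In the nervous system astrocytes are the cells best known for a strong NRF2 response, and through glutathione they help to protect neighbouring neurons.

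The core letters of the antioxidant response element, TGACNNNGC or GCNNNGTCA on the other strand, were searched in the RefSeq promoter windows of the build GRCm38.p6, which run from 250 bases before to 50 bases after the annotated start. Windows were given for 7 of the 10 genes, and 4 of these genes held a match. Among all windows of this length 12.4% held the letters, as did 14% of the genes. The 4 matches are shown because they are the stretches of these windows that carry the searched letters. Whether NRF2 binds at any of them was not tested. Each is given 5′ to 3′ on the strand of its gene, with the match in capitals.
*Nfe2l2*, chr2:75704885-75704913, minus strand: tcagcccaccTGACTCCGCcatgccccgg
*Gclm*, chr3:122245413-122245441, plus strand: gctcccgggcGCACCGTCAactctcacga
*Txnrd1*, chr10:82859104-82859132, plus strand: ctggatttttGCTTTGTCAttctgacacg
*Srxn1*, chr2:152105542-152105570, plus strand: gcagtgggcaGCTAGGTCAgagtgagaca
Counting the start base as 0, the capitals lie at -240 to -232 in *Nfe2l2*, at -134 to -126 in *Gclm*, at -92 to -84 in *Txnrd1* and at 28 to 36 in *Srxn1*. For *Txnrd1*, 1 of its 3 windows held the match. The windows of *Keap1*, *Nqo1* and *Slc7a11* did not hold these letters. A match describes the sequence only, and no other motif and no other form of the element was searched.

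Library totals ranged from 19661878 to 26031517 counts. *Neat1* read 5.09, 5.40, 5.52 and 4.04 CPM (counts scaled to the size of the library) in the *Neat1*-KO cords and 86.2, 80.5 and 118.4 CPM in the *Neat1*-WT cords, with no overlap, as the labels give it. *Hox* genes of the cervical cord were present, and the lumbar gene *Hoxd10* had at most 3 counts in any library. Y-linked genes were read in all 7 libraries and *Xist* had at most 4 counts in any, so no library read as female. *Neat1*-KO replicate 4 stood apart for the Y-linked genes, with *Ddx3y* at 39.9 CPM against 75.8 to 94.4 CPM in the others. Without that library, the median log2 fold change of the 10 genes was 0.054, against 0.075 with it.

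None of the 10 genes passed the test between the genotypes. A gene was called where edgeR's quasi-likelihood test gave an adjusted p under 0.1 with a log2 fold change past 0.58 in either direction. This held for 0 of 10, against 6 of 18449 genes tested (0.0325%, of which 0.0108% higher and 0.0217% lower in *Neat1*-KO). At an unadjusted p under 0.05 there were also 0 of 10, against 4.64% of all genes (2.24% higher, 2.4% lower), and DESeq2 and limma-voom called 0 of 10 as well. All 10 passed the filter on low counts. The estimates were small, with 7 genes higher and 3 lower in *Neat1*-KO, where 48.2% of all genes were lower, and a median log2 fold change of 0.075, beside 0.0062 over all genes tested. The median size of the difference, whatever its sign, was 0.076 for the 10 genes and 0.094 for all genes. The 95% intervals show how large a difference these libraries leave room for. All 10 lay within 1 log2 unit of 0, 9 lay within 0.58 and 5 within 0.3. The exception at 0.58 was *Slc7a11*, whose interval ran from 0.718-fold to 1.52-fold. These intervals are edgeR's. For *Slc7a11* DESeq2 gave a larger SE (standard error), 0.37 against 0.25 in edgeR, so the libraries leave room for a wider range there.

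**Figure D1:**
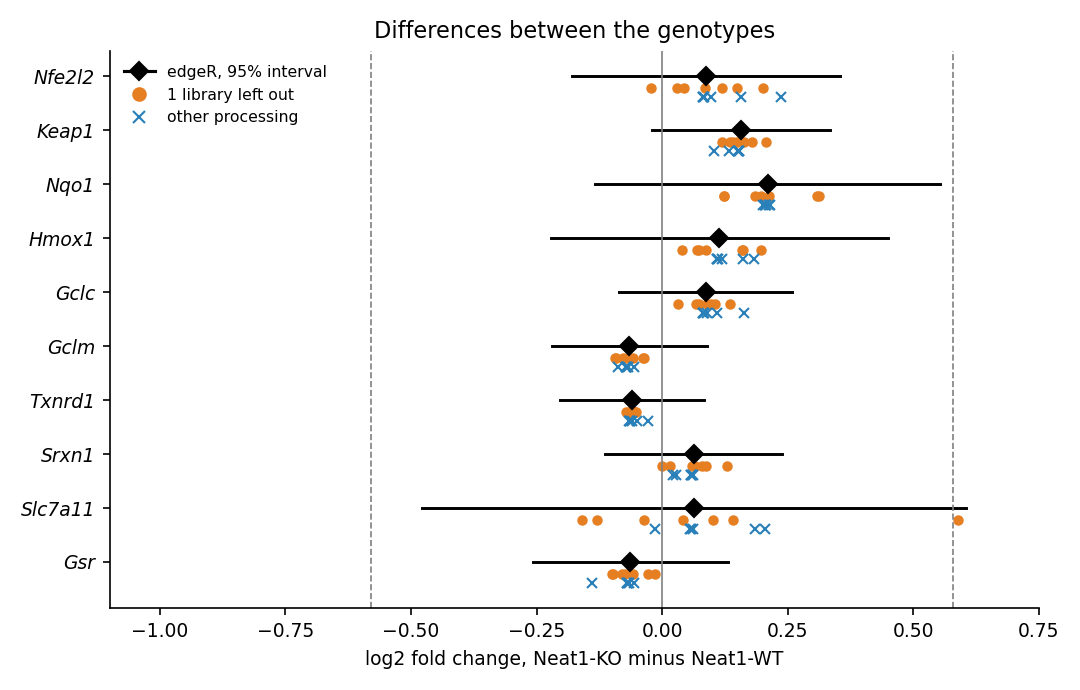
Log2 fold change of each of the 10 genes, Neat1-KO minus Neat1-WT (horizontal axis), with the edgeR estimate and its 95% interval as a black diamond and line, the estimates with 1 library left out as orange points, and those under other processing as blue crosses. Dashed lines stand at 0.58 on either side of 0. Every interval covers 0, and the Slc7a11 estimate reaches 0.59 when Neat1-WT replicate 4 is left out.

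The genes were expressed at very different levels in the cord. Levels per kilobase of exon, in CPM per kilobase (RPKM), were led by *Srxn1*, the gene of sulfiredoxin, with a median of 47.8 RPKM over the 7 libraries, higher than 94.6% of the tested genes. *Gclm* at 16.5, *Gclc* at 15.6, *Keap1* at 14.1 and *Txnrd1* at 12.4 RPKM formed a middle group, followed by *Gsr* at 9.54 and *Nfe2l2* at 7.28 RPKM. *Nqo1* at 6.07, *Hmox1* at 3.42 and *Slc7a11* at 2.03 RPKM were the lowest by this measure, the last being above 33.4% of tested genes. The place of *Slc7a11* rests on its exon length of 13922 bases. Before division by length it read 19.8 to 47.9 CPM, above *Nqo1* (7.24 to 11.2 CPM) and *Hmox1* (5.76 to 7.59 CPM). Neighbours in this order whose library ranges overlapped were *Gclm* and *Gclc*, *Gclc* and *Keap1*, *Nfe2l2* and *Nqo1*, and *Hmox1* and *Slc7a11*. The other neighbours did not overlap and kept their order in 7 of 7 libraries. *Hmox1* and *Nqo1*, the classic inducible genes of the pathway, thus stood near the bottom in the cords of both genotypes.

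**Figure D2:**
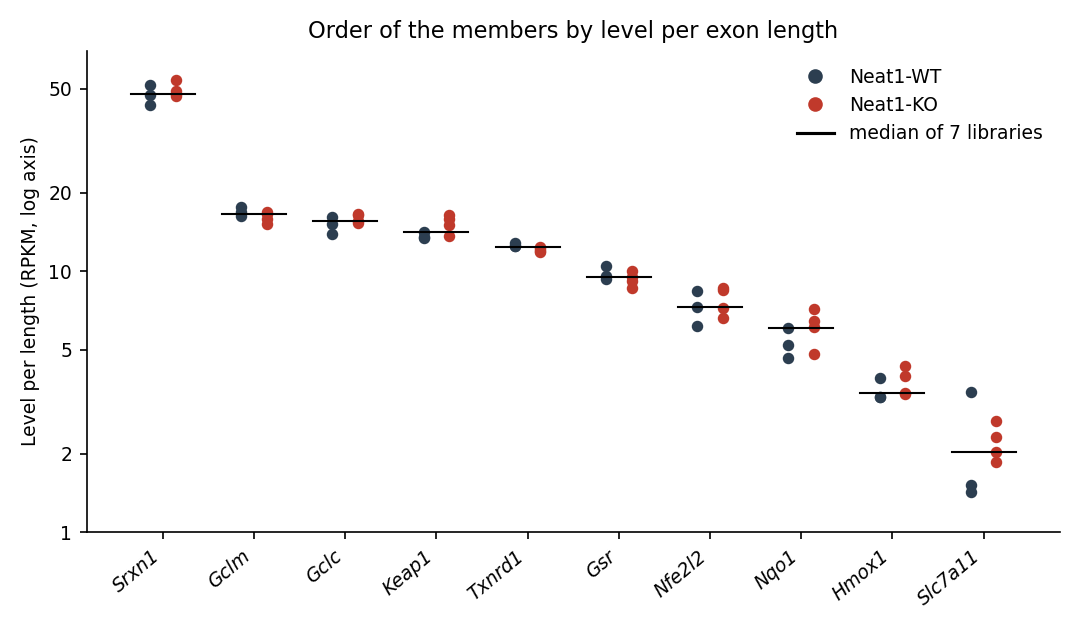
Level per kilobase of exon (RPKM, log axis) of each gene in each of the 7 libraries, ordered by the median, with the 2 genotypes in different colours. Srxn1, at 43.3 to 54.2 RPKM, lies above all the others in every library, and Slc7a11 spreads most, from 1.42 to 3.44 RPKM.

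*Nfe2l2* (ENSMUSG00000015839, chr2:75675513-75704641, minus strand) read 25.2, 27.4, 32.1 and 32.8 CPM in *Neat1*-KO and 23.4, 27.6 and 32.02 CPM in *Neat1*-WT. Both genotypes covered nearly the same range, and the means were 29.4 ± 3.64 (SD, n = 4) and 27.7 ± 4.31 CPM (SD, n = 3). Its log2 fold change was 0.087 with a standard error (SE) of 0.12, and a 95% interval of -0.18 to 0.35 (edgeR adjusted p = 0.992, two-sided exact permutation p = 0.571). The sign rested on 1 library, since leaving out *Neat1*-WT replicate 2 gave -0.021.

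*Keap1* (ENSMUSG00000003308, chr9:21229730-21239361, minus strand) read 74.5, 77.1, 64.0 and 70.6 CPM in *Neat1*-KO and 66.1, 63.5 and 62.9 CPM in *Neat1*-WT. The lowest *Neat1*-KO library lay among the *Neat1*-WT ones. The means were 71.6 ± 5.70 (SD, n = 4) and 64.2 ± 1.68 CPM (SD, n = 3). Its log2 fold change of 0.16 (SE 0.082) came with the smallest unadjusted p among the 10 genes, 0.0769 in edgeR, an adjusted p of 0.992 and an exact permutation p of 0.0857. It was positive under all 13 alternatives, from 0.10 to 0.21, with no adjusted p under 0.563. The exons of *Keap1* share 510 bases with the antisense gene *Gm16754*, which read 13.8 to 17.5 CPM. The strand setting of the counting is not given in the sources used here, so reads of this stretch cannot be assigned with certainty.

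The ratio of activator to repressor mRNA needs no scaling between libraries. The log2 ratio of *Nfe2l2* to *Keap1* was -1.56, -1.49, -0.997 and -1.11 in *Neat1*-KO and -1.50, -1.20 and -0.97 in *Neat1*-WT. The groups overlapped almost wholly, with means of -1.29 ± 0.28 (SD, n = 4) and -1.22 ± 0.26 (SD, n = 3). The difference was -0.066 (exact permutation p = 0.8 before and after adjustment over the 2 ratios tested). Across the 7 libraries the tested genes most like *Nfe2l2* in log2 CPM were *Bcorl1* (Pearson r = 0.995), *Zfp366* (0.991) and *Pofut1* (0.984). Those most like *Keap1* were *Dnm1* (0.987), *Gm3764* (0.983) and *Peli3* (0.975). These are the highest of 18449 values each over only 7 libraries that share their depth and tissue, and they are given as a description.

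**Figure D3:**
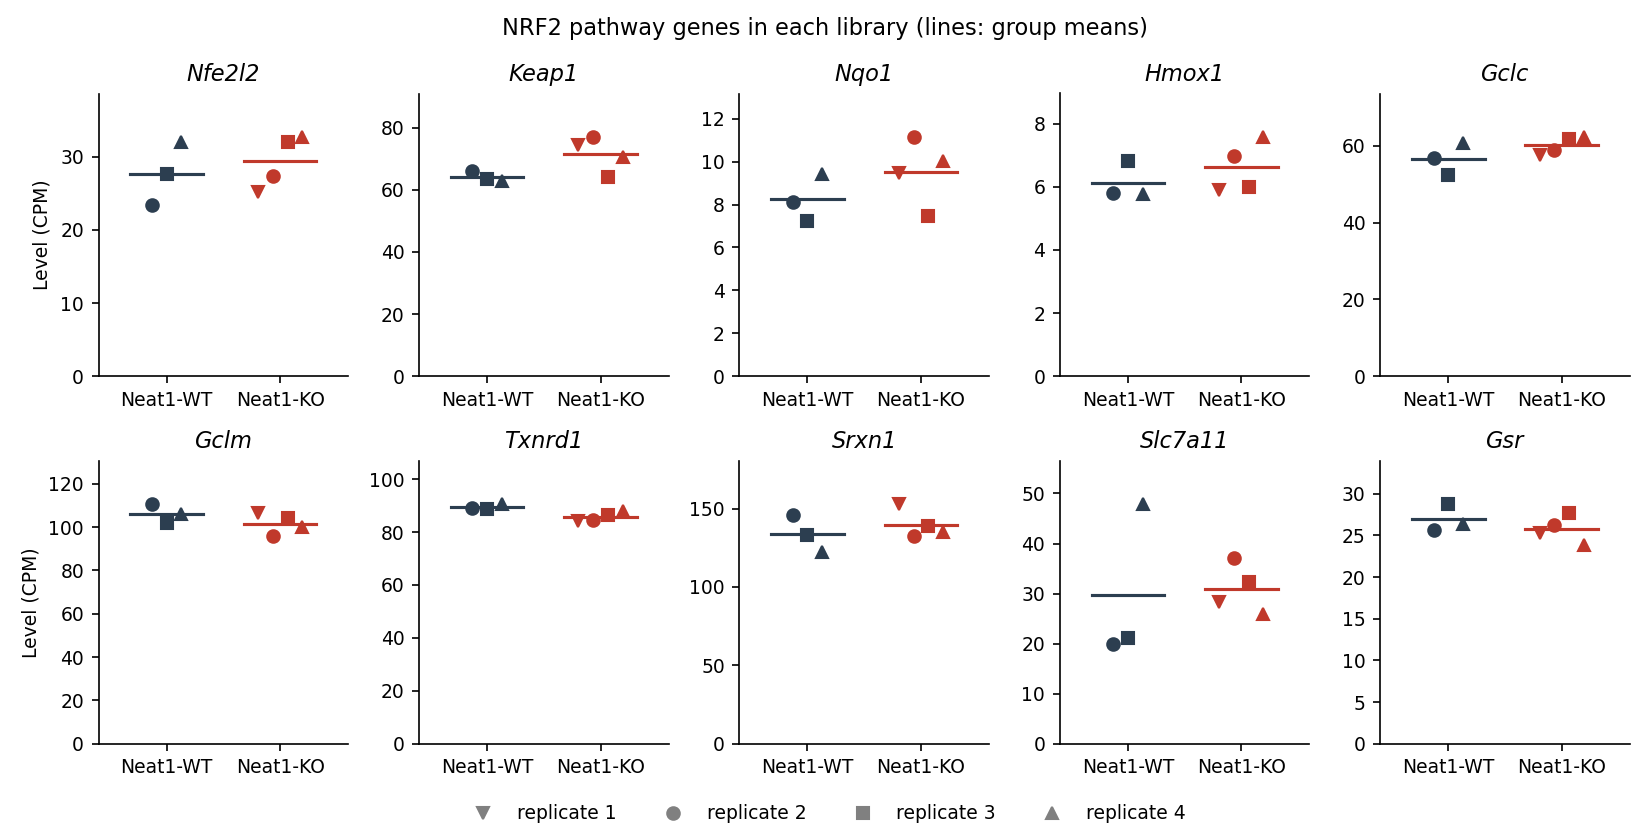
Level of each of the 10 genes in CPM by library, 1 panel a gene with its own vertical axis. Points are libraries grouped by genotype, and horizontal lines are the means of the genotypes. In 9 panels the genotypes overlap. In the Txnrd1 panel the 4 Neat1-KO libraries lie at 84.2 to 88.0 CPM, just under the 3 Neat1-WT libraries at 88.8 to 90.5 CPM.

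Glutathione synthesis begins with cystine, which the xCT transporter encoded by *Slc7a11* brings into the cell in exchange for glutamate. *Slc7a11* (ENSMUSG00000027737, chr3:49892526-50443614, minus strand) read 28.3, 37.0, 32.3 and 25.9 CPM in *Neat1*-KO and 19.8, 21.2 and 47.9 CPM in *Neat1*-WT. All 4 *Neat1*-KO libraries lay between the *Neat1*-WT ones, of which replicate 4 held the highest and replicate 2 the lowest value of the series. The means of 30.9 ± 4.90 (SD, n = 4) and 29.6 ± 15.8 CPM (SD, n = 3) differed by a log2 fold change of 0.064 (SE 0.25, edgeR adjusted p = 0.996, exact permutation p = 0.686). Within a genotype its libraries varied by an SD of 0.473 log2 units, more than 96.9% of tested genes, while counting error alone would give 0.0558. *Neat1*-WT replicate 4 decided the value. Without it the log2 fold change was 0.59 (edgeR adjusted p = 0.499), and without *Neat1*-WT replicate 2 or 3 it was -0.16 or -0.13.

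Glutamate-cysteine ligase, the rate-limiting enzyme of glutathione synthesis, is built from a catalytic subunit (*Gclc*) and a modifier subunit (*Gclm*). *Gclc* (ENSMUSG00000032350, chr9:77754535-77794485, plus strand) read 57.5, 58.9, 61.8 and 62.4 CPM in *Neat1*-KO and 56.9, 52.4 and 60.7 CPM in *Neat1*-WT. *Gclm* (ENSMUSG00000028124, chr3:122245557-122270732, plus strand) read 106.3, 95.7, 104.1 and 99.8 CPM in *Neat1*-KO and 110.6, 102.0 and 105.9 CPM in *Neat1*-WT. The estimates of the subunits had opposite signs, and the libraries of the genotypes overlapped for both. The log2 fold change was 0.087 for *Gclc* (SE 0.079, edgeR adjusted p = 0.992, exact permutation p = 0.171). For *Gclm* it was -0.065 (SE 0.071, edgeR adjusted p = 0.992, exact permutation p = 0.286). Both were steady, with SDs within a genotype of 0.0790 and 0.0637 log2 units, which only 10.9% and 5.61% of tested genes undercut. Exons of *Gclm* overlap 2 other genes, *Gm17494* on the opposite strand (296 shared bases, at most 4.88 CPM) and *Gm6061* on the same strand (244 shared bases, at most 1.70 CPM).

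The balance of the subunits was also read within each library. The log2 ratio of *Gclc* to *Gclm* was -0.89, -0.70, -0.75 and -0.68 in *Neat1*-KO and -0.96, -0.96 and -0.80 in *Neat1*-WT. In 3 of 4 *Neat1*-KO cords it was above every *Neat1*-WT cord, and replicate 1 was the exception. The means were -0.75 ± 0.093 (SD, n = 4) and -0.91 ± 0.090 (SD, n = 3), a difference of 0.15 that did not pass the exact permutation test (p = 0.114, adjusted p = 0.229, smallest possible p 0.0286). The difference stayed positive when any 1 library was left out, from 0.13 to 0.21.

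*Gsr*, the glutathione reductase that returns oxidised glutathione to its reduced form, read 25.3, 26.3, 27.7 and 23.8 CPM in *Neat1*-KO and 25.7, 28.8 and 26.4 CPM in *Neat1*-WT (ENSMUSG00000031584, chr8:33652523-33698163, plus strand). The libraries overlapped, with means of 25.8 ± 1.62 (SD, n = 4) and 26.9 ± 1.62 CPM (SD, n = 3). *Gsr* had a log2 fold change of -0.064 (SE 0.090, edgeR adjusted p = 0.992, exact permutation p = 0.371).

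*Txnrd1*, the cytosolic thioredoxin reductase, was the steadiest gene of the pathway. It read 84.2, 84.6, 86.4 and 88.0 CPM in *Neat1*-KO and 88.9, 88.8 and 90.5 CPM in *Neat1*-WT (ENSMUSG00000020250, chr10:82833951-82897712, plus strand). Every *Neat1*-KO library lay below every *Neat1*-WT library, which made it the 1 gene of 10 whose groups did not overlap, where 5.47% of all genes did not overlap and 2.57% did so with *Neat1*-KO lower and 2.91% with it higher. The gap was small. The means of 85.8 ± 1.74 (SD, n = 4) and 89.4 ± 0.982 CPM (SD, n = 3) gave a log2 fold change of -0.059 (SE 0.066, edgeR adjusted p = 0.992, exact permutation p = 0.0571). Its SD within a genotype was 0.0246 log2 units, below the 0.0328 that counting error alone would give. Only 17 of the 18449 tested genes (0.0921%) had a smaller SD.

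*Srxn1*, whose product restores over-oxidised peroxiredoxins, read 152.8, 132.6, 138.9 and 134.9 CPM in *Neat1*-KO and 146.0, 133.3 and 122.0 CPM in *Neat1*-WT (ENSMUSG00000032802, chr2:152105516-152111376, plus strand). The highest library was *Neat1*-KO replicate 1 and the lowest *Neat1*-WT replicate 4, with the others mixed between them. The means were 139.8 ± 9.07 (SD, n = 4) and 133.8 ± 11.97 CPM (SD, n = 3). Its log2 fold change of 0.063 (SE 0.081, edgeR adjusted p = 0.992, exact permutation p = 0.429) was -0.00077 without *Neat1*-WT replicate 4.

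*Nqo1*, a quinone reductase and a standard marker of NRF2 activity, had the largest estimate of the 10 genes. It read 9.45, 11.2, 7.47 and 10.03 CPM in *Neat1*-KO and 8.10, 7.24 and 9.43 CPM in *Neat1*-WT (ENSMUSG00000003849, chr8:107388225-107403206, minus strand). The genotypes overlapped, and *Neat1*-KO replicate 3 lay below 2 of the 3 *Neat1*-WT libraries. The means of 9.53 ± 1.55 (SD, n = 4) and 8.26 ± 1.11 CPM (SD, n = 3) gave a log2 fold change of 0.21 (SE 0.16, 95% interval -0.13 to 0.55, edgeR adjusted p = 0.992, exact permutation p = 0.286). Its sign was the same under all 13 alternatives, from 0.12 to 0.31.

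*Hmox1* encodes the inducible heme oxygenase, which breaks heme down to biliverdin, iron and carbon monoxide. It read 5.91, 6.97, 5.99 and 7.59 CPM in *Neat1*-KO and 5.79, 6.82 and 5.76 CPM in *Neat1*-WT (ENSMUSG00000005413, chr8:75093621-75100589, plus strand). The ranges overlapped, with means of 6.61 ± 0.811 (SD, n = 4) and 6.12 ± 0.600 CPM (SD, n = 3). *Hmox1* had a log2 fold change of 0.11 (SE 0.15, edgeR adjusted p = 0.992, exact permutation p = 0.4). *Hmox1* varied by an SD of 0.150 log2 units within a genotype, little more than the 0.121 of counting error, so depth limits what can be said of it.

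The wider pathway was read from 6 lists with 116 symbols, of which 115 were found and 102 tested. No gene of these lists was called by edgeR or limma-voom, and DESeq2 called 1. At an unadjusted p under 0.05 there were 5 of 102 (4.90%), beside 4.64% of all genes (2.24% higher, 2.4% lower). All 5 were higher in *Neat1*-KO. They were *Ftl1*, *Slc3a2*, *Ggt7*, *Dpp3* and *Gpx3*, the last 3 named after their values were seen. Over the lists 64 genes were higher and 38 lower, with a median log2 fold change of 0.037, beside 0.0062 over all genes. Groups did not overlap for 4 genes that were higher (*Gstm1*, *Gstz1*, *Msra*, *Mthfd1*) and 1 that was lower (*Btrc*), of which all but *Gstm1* were named after their values were seen. These 5 of 102 (4.90%) were no larger a share than the 5.47% of all genes without overlap (2.91% higher, 2.57% lower).

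Among regulators of NRF2, 10 were higher and 9 lower, with a median log2 fold change of 0.020. *Cul3*, the ligase scaffold that KEAP1 recruits, had a log2 fold change of -0.11, *Mafg*, a small MAF partner of NRF2, -0.089, and *Bach1*, a repressor that competes for the same elements, -0.076. *Sqstm1*, whose product p62 can sequester KEAP1, stood at 0.050 and *Nfe2l1*, a relative of NRF2, at 0.097. *Dpp3*, whose product also binds KEAP1, had means of 45.4 ± 4.02 (SD, n = 4) and 38.8 ± 1.93 CPM (SD, n = 3), or 0.23 as a log2 fold change, with an edgeR adjusted p of 0.992.

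Of the glutathione genes tested, 19 of 26 were higher in *Neat1*-KO and 7 lower, with a median log2 fold change of 0.079. *Slc3a2*, the heavy chain that pairs with xCT and with other amino acid transporters, read 141.6, 132.1, 113.2 and 129.3 CPM in *Neat1*-KO and 106.7, 116.4 and 106.2 CPM in *Neat1*-WT. Of its libraries, *Neat1*-KO replicate 3 lay within the *Neat1*-WT range, and the other 3 lay above it. The log2 fold change was 0.23 (SE 0.084, edgeR p = 0.0161, adjusted p = 0.992, exact permutation p = 0.0857). *Gstm1*, a glutathione transferase, read 137.4, 141.2, 143.1 and 214.8 CPM in *Neat1*-KO and 136.7, 136.4 and 126.3 CPM in *Neat1*-WT. Its log2 fold change was 0.26 with *Neat1*-KO replicate 4, the library with low Y-linked counts, and 0.078 without it. *Ggt7* stood at 0.21 and *Gpx3*, a secreted glutathione peroxidase, at 0.33, both with an edgeR adjusted p of 0.992. *Gpx4*, the peroxidase of membrane lipids, stood at 0.033, *Gss*, the second enzyme of glutathione synthesis, at -0.048, and the transferase *Gsta4* at 0.13.

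The thioredoxin and peroxiredoxin genes were higher for 12 and lower for 5 of 17 genes, with a median log2 fold change of 0.027. *Prdx1* stood at 0.0023, *Prdx6* at 0.016, *Txn1* at -0.048 and the mitochondrial reductase *Txnrd2* at 0.16. The genes of NADPH supply were higher for 7 and lower for 2 of 9 genes, with a median of 0.062. *G6pdx*, the entry enzyme of the pentose phosphate pathway, stood at 0.11 and malic enzyme *Me1* at 0.027. Detoxification and efflux genes were divided into 11 higher and 10 lower with a median of 0.00068, and *Osgin1* stood at -0.28 at a mean under 1 CPM in both genotypes.

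Heme and iron genes were divided evenly, 5 higher and 5 lower, with a median of 0.017. *Hmox2*, the constitutive heme oxygenase, stood at -0.082 and *Blvrb*, a biliverdin reductase, at 0.12. *Ftl1*, the light chain of the iron store ferritin, had the largest difference of all the listed genes. It read 95.5, 175.9, 140.9 and 156.7 CPM in *Neat1*-KO and 80.7, 96.2 and 87.5 CPM in *Neat1*-WT. *Neat1*-KO replicate 1 lay just under the highest *Neat1*-WT library, and the other 3 were well above it. The means were 142.2 ± 34.3 (SD, n = 4) and 88.1 ± 7.75 CPM (SD, n = 3). Its log2 fold change of 0.69 (SE 0.16) had an edgeR p of 0.000855 and an adjusted p of 0.496, with an exact permutation p of 0.0857. Without *Neat1*-KO replicate 1 it was 0.84 (edgeR adjusted p = 0.0014), and over all 13 alternatives the adjusted p ran from 2.22e-11 to 1.0. *Ftl1* has near-identical copies, among them *Ftl1-ps1* at 99.56% identity, and since only uniquely mapped reads were counted, per the study's methods, reads that match several copies equally well are not in its value.

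**Figure D4:**
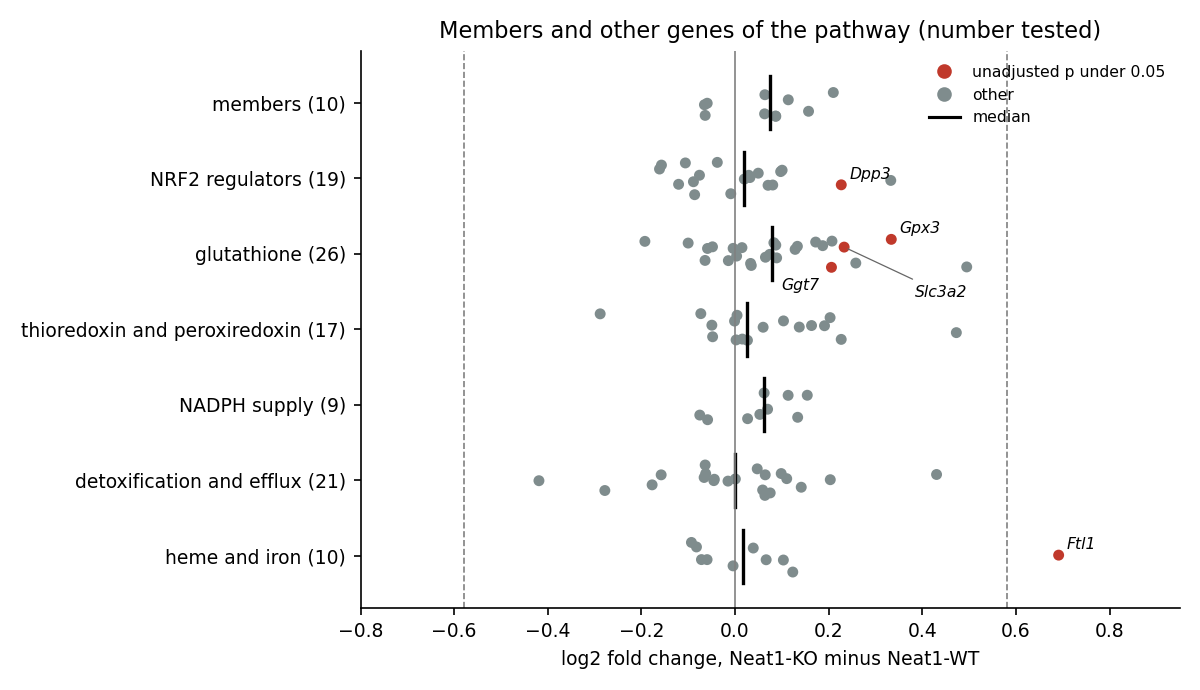
Log2 fold change, Neat1-KO minus Neat1-WT, of the 10 genes and of the tested genes of each wider list (1 point a gene, number tested in brackets), with the median of each row as a black bar and genes at an unadjusted edgeR p under 0.05 in red. Dashed lines stand at 0.58 on either side of 0. The medians lie between 0.00068 and 0.079, and Ftl1 is the 1 gene past a dashed line.

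A bulk cord mixes cell types, and a lower level can mean fewer cells of a type or less RNA per cell, which cannot be told apart. The astrocyte markers, 7 of 7 tested, summed to 7389 to 8681 CPM in *Neat1*-KO and 7645 to 8772 CPM in *Neat1*-WT, with none at an unadjusted p under 0.05. The microglia and macrophage markers summed to 265 to 364 CPM and 256 to 347 CPM. Markers of the meninges, 7 of 7 tested, overlapped in their sums (634 to 946 CPM and 708 to 951 CPM), with a median log2 fold change of 0.27. *Ptgds*, at 507 to 847 CPM, made up most of each sum. *Col1a1* differed widely within a genotype, at 10.6, 45.4, 37.2 and 28.8 CPM in *Neat1*-KO and 8.65, 13.5 and 52.3 CPM in *Neat1*-WT. Of the 7 meninges markers, *Lum* (0.66) and *Ptgds* (-0.28) were at an unadjusted p under 0.05, with opposite signs, and 0 were called by edgeR. Motor neuron markers, 7 of 7 tested, summed to 310.4 to 384.8 CPM in *Neat1*-KO and 401 to 497 CPM in *Neat1*-WT, without overlap. The separation was of the sum only, since each of the 7 markers overlapped between the genotypes when read singly. Their estimates were uneven, from -0.40 for *Slc5a7* to -0.13 for *Isl1* and -0.092 for *Chat*. Of these 7, 4 were at an unadjusted p under 0.05, where 4.64% of all genes were, and 0 were called by edgeR. Their median log2 fold change was -0.30. General neuron markers, 6 of 6 tested, overlapped in their sums (3364.5 to 3658.1 CPM in *Neat1*-KO and 3283.2 to 3755.1 CPM in *Neat1*-WT), with a median of 0.0096. Only *Slc6a5* among them was at an unadjusted p under 0.05, and it was higher in *Neat1*-KO (0.20). What part the motor neuron and meninges markers have in the values of the NRF2 genes was not tested.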

How the data were processed

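Per the labels and the study's methods, RNA of cervical spinal cords was made into poly(A) directional libraries for paired-end sequencing. The authors trimmed reads (Trimmomatic 0.38), aligned them (HISAT2 2.1.0) and counted the uniquely mapped ones per gene (featureCounts 1.6.3) on mm10, as the submitters' processing notes list, and they deposited the raw counts, with no normalization. The strand setting is not given in the sources used here. The groups came from the sample labels, with 1 library a mouse. The p-values measure the spread between these mice.

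GENCODE M21 (GRCm38) supplied names and positions, and named 55227 of 55487 genes, and the other 260 held at most 0.00494% of the counts. Genes were filtered by filterByExpr, scaled by TMM (factors 0.991 to 1.008) and tested in edgeR 4.0.16 (R 4.3.3) by the quasi-likelihood F-test, with Benjamini-Hochberg adjustment over 18449 genes and a biological coefficient of variation of 0.128. The call thresholds, an adjusted p of 0.1 and a log2 fold change of 0.58, are the study's. At these thresholds the paper reported more altered genes than the 6 called here by edgeR, and DESeq2 called 27 here. The SE was the log2 fold change over the root of F, and the 95% interval used the t distribution. CPM are TMM-scaled. RPKM divided CPM by the union exon length. Single genes had a two-sided exact permutation test of log2(CPM + 0.5) over the 35 splits of 4 and 3 libraries, whose smallest p is 0.0286. Copies were searched with BLAST 2.17.0 at 90% identity. Besides *Ftl1*, other named genes had copies, among them *Gpx4* (*Gpx4-ps2*, 99.7%), *Prdx1* (*Gm21399*, 98.3%), *Me1* (*Gm7049*, 98.5%) and *Gstm1* (*Gstm2-ps1*, 97.9%). *Txn1* (*Txn-ps1*, 95.8%), *G6pdx* (*G6pd2*, 93.2%), *Gclm* and *Slc7a11* had copies too. Reads that match such copies equally well are not in the values of these genes either. The fit was tested on simulated data. Figures used matplotlib 3.10.9.

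Alternatives were median-of-ratios factors, no filter, DESeq2 1.42.0, limma-voom (limma 3.58.1), *Xist* as covariate, a replicate block, no minimum fold change and leaving out each library. The members and lists were chosen with earlier results of these data known. All 10 members and 20 genes of the lists were always named, with any listed gene at an adjusted p under 0.1, and the 3 genes most correlated with *Nfe2l2* and with the member of smallest p.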

Additional observations from a re-analysis of the deposited data

Results flagged for a closer look

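*Gstm1* in *Neat1*-KO was flagged because replicate 4 lay far from the other libraries of its group. Its gap to the nearest of them was 0.926 of the group's range, where 0.829 is the critical value for 4 samples. The flag came from 30 results screened, of which chance flags about 1 in 20, or 1.5 here. The same library had the lowest counts of the Y-linked genes, and the part of either in the other was not tested.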

How the results depend on the processing

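The 10 genes had 0 calls under every alternative, and of their 130 values over 13 settings 124 kept their sign. Signs changed for 3 genes. With 1 library left out *Nfe2l2* ran from -0.021 to 0.20, *Srxn1* from -0.00077 to 0.13 and *Slc7a11* from -0.16 to 0.59, and *Slc7a11* stood at -0.014 with *Xist* as covariate. The *Nfe2l2* to *Keap1* ratio ran from -0.20 to 0.059. In the wider lists 237 of 260 values kept sign and call. With 1 library left out *Bach1* ran from -0.15 to 0.012, *Gpx4* from -0.084 to 0.099, *Txn1* from -0.12 to 0.027, *Prdx1* from -0.082 to 0.067, *Prdx6* from -0.021 to 0.039 and *Me1* from -0.046 to 0.064. *Xist* as covariate turned *Bach1* (0.080), *Gpx4* (-0.054) and *Prdx1* (-0.032). With at most 4 *Xist* counts in any library, this covariate rests on very few reads and cannot serve as an adjustment for sex. The replicate block turned *Gpx4* (-0.079) and *Prdx1* (-0.082), and *Prdx1* also changed sign under median-of-ratios factors (-0.0034), no filter (-0.0017), DESeq2 (-0.0035) and limma-voom (-0.0084).

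Over all genes 6 were called, against 124 with no filter, 27 by DESeq2, 39 with the replicate block, and 3 (without *Neat1*-WT replicate 3) to 31 (without *Neat1*-KO replicate 1) with 1 library left out. The count was 11 without *Neat1*-WT replicate 4. The wider lists had 1 call, *Ftl1*, with no filter (log2 fold change 0.69) and with DESeq2 (0.69). The same call came with the replicate block (0.84) and without *Neat1*-KO replicate 1 (0.84), and there were 0 to 1 calls with 1 library left out. Replicate 1 has no *Neat1*-WT library. In the block fit *Neat1*-KO replicate 1 therefore has its own term and does not bear on the genotype estimate. The block and the fit without that library are thus nearly the same change and not separate checks. Why the other settings differed was not tested. Whether the replicate numbers pair the mice is not given in the sample labels. Deviations of same-numbered libraries from their group means correlated at -0.24, -0.16 and -0.012. None of the 3 *Neat1*-WT libraries correlated best with the *Neat1*-KO library of its own number. With only 3 same-numbered pairs, these values cannot decide whether the numbers pair the mice. Among the 10 genes depth limits *Hmox1* most, and 4 against 3 libraries limit all exact tests.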

Other observations

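The Y-linked genes read low together in *Neat1*-KO replicate 4. *Uty* was at 6.45 CPM and at 16.6 to 23.1 CPM elsewhere, *Kdm5d* at 9.69 against 19.4 to 28.5 CPM and *Eif2s3y* at 12.2 against 19.6 to 33.2 CPM. *Xist* had at most 4 counts in any library.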
